A study of Mus musculus with 2 samples.

Results

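The CCGG positions described here carried a high count in both of a pair of methylRAD libraries of F9 cells. They were chosen as CCGG positions on chromosomes 1 to 19 with a deposited count of 80 to 149 in the undifferentiated and also in the differentiated library. The rule was met by 1709 of the 547722 autosomal CCGG positions listed in both libraries, which is 0.312%, and these 1709 positions are called members below. They were set beside 83874 comparison sites, CCGG positions with counts of 20 to 39 in both libraries, a range that held the autosomal medians of 22 undifferentiated and 21 differentiated counts. Both libraries came from F9, a mouse embryonal carcinoma line, with 1 library of undifferentiated cells, kept on gelatin-coated plates, and 1 of cells at day 4 after plating in low-attachment dishes with 1 µM retinoic acid. No genetic change between them was described, and their genomes were not compared. There were no replicates, so every value describes these libraries, and no test between conditions was made. The study asked how enhancers of pluripotency genes are controlled in embryonal carcinoma cells. Whether the members were strongly methylated, as their working description has it, could not be checked with these counts. Of the members, 1351 (79.1%) fell into 6 chromosome stretches in which other CCGG sites also had raised counts. More sites outside CpG were listed there per listed CCGG site. The members are therefore called by their counts.

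FspEI is an enzyme that needs a methylated cytosine and cuts the DNA a fixed distance from it. At a CCGG methylated on both strands it cuts on both sides and releases a short fragment with the CCGG at its centre, and methylRAD sequences these fragments. CpG methylation is high over most of the mouse genome outside CpG islands and active promoters, where it keeps repeats and many promoters silent. The count of a site rises with the share of methylated copies and also with the number of copies of its DNA in the sample. No library of undigested DNA was analysed here, so the methylation of a site and the number of its copies cannot be told apart by its count.

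The fragments of a few members and comparison sites are shown because they are the molecules that were counted. They come from RefSeq promoter windows of GRCm38.p6, which reach from 250 bases before to 50 bases after a gene start. Each runs 5′ to 3′ on the plus strand and has 32 bases, in which the capitals mark the CCGG. Of the 9 members in such windows, 7 had all 32 bases inside the window, and these are the members printed.
Gm6566 member: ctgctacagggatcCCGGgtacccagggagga
Slc25a47 member: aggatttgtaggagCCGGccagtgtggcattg
Gm36894 member: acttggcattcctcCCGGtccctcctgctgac
Gm43915 member: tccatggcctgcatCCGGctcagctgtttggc
Gm42043 member: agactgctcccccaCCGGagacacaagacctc
Gm33458 member: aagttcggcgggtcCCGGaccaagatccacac
Gm36619 member: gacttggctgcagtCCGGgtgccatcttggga
Papln comparison: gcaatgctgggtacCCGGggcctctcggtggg
Gm51960 comparison: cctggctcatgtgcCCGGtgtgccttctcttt
Aspg comparison: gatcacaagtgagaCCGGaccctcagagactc
Pianp comparison: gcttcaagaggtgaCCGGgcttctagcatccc
Plekhg4 comparison: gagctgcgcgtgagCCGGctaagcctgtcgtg

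The Slc25a47 site, at chr12:108851109-108851140 and 6 bases before the start of this gene for a mitochondrial carrier, had 122 undifferentiated and 136 differentiated counts. The sites near the starts of 2 long noncoding RNA genes on the same chromosome had 80 and 111 counts (Gm6566, chr12:87155486-87155517) and 98 and 126 counts (Gm36894, chr12:112255429-112255460). The nearest promoter comparison site to the latter, in front of Aspg, which encodes an asparaginase, lay at chr12:112106488-112106519 and had 23 and 22 counts. The Gm36894 and Aspg sites therefore stood within 149 kb of each other in the same stretch. Other pairs were farther apart, with 2423 kb for Slc25a47 and Gm51960. The distance was 3319 kb for Gm42043 and Plekhg4 and 4040 kb for Gm43915 and Pianp. The comparison site of Gm51960, at chr12:111273927-111273958, had 31 and 27 counts. The one nearest to Gm6566, in front of Papln at chr12:83763487-83763518, had 25 and 27 and lay outside the stretch. Gm43915 (chr6:120958705-120958736) had 83 and 84 counts, and Pianp (chr6:124998476-124998507) had 39 and 23. Gm42043 (chr8:108693589-108693620) had 90 and 80 counts, and Plekhg4 (chr8:105375066-105375097), a gene for a guanine nucleotide exchange factor, had 27 and 30. These 5 members lay in raised stretches as defined below, whereas Gm33458 (chr2:56801285-56801316, 98 and 134 counts) and Gm36619 (chr5:100727090-100727121, 91 and 148 counts) did not.

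The printed members had few further CpG dinucleotides. Apart from the CpG of the CCGG itself, the 7 members held 0.29 CpG per fragment on average, and 85.7% of them held none. Over the 372 comparison sites whose fragment lay inside a promoter window, the mean was 0.51 and 59.4% held none. Over 30191 CCGG sequences of the same windows that were listed in neither library, the mean was 2.54 and 12.1% held none. The G+C share had a median of 62.5% in the members, 59.4% in the comparison sites and 71.9% in the unlisted sequences. Promoter windows held 38663 CCGG sequences, of which 14.5% were listed in at least 1 library, and 7 members are too few to say how the others look.

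The listed counts summed to 20550450 over 1016209 sites in the undifferentiated and 21291239 over 1108689 sites in the differentiated library, CCAGG and CCTGG sites included. Every listed site had at least 5 counts, and a site that is not listed cannot be read as unmethylated, since how sites were filtered is not given in the sources used here. Members held 0.982% of the undifferentiated and 1.15% of the differentiated CCGG counts.

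The count itself was fixed by the rule and is given as a description only. In undifferentiated cells the lowest member count was 80, the median 92 and the highest 149, and in differentiated cells the lowest was 80, the median 102 and the highest 149. The differentiated count was the higher of the pair at 1149 members, the lower at 521 and equal at 39. On the level scale, counts per 1000000 CCGG counts of the library, the median log2 ratio of differentiated to undifferentiated was 0.21 (quartiles 0.04 and 0.41), where equal counts give 0.09 and the rule allows −0.81 to 0.98. The comparison sites had a median of 0.09 (quartiles −0.18 and 0.37). Sites with 40 to 79 counts in both libraries had 0.18 (quartiles −0.04 and 0.42), and those with 150 or more had 0.43. A level at least 1.5-fold higher in differentiated cells was found at 182 members, 10.6%, where 29.9% of all autosomal CCGG sites listed in both libraries were past that fold. A level at least 1.5-fold lower was found at 9 members, 0.527%, against 25.0% of all such sites. The rule narrows the ratio by itself, so nothing is read from these shares. The sign of the median ratio also hung on the scaling: it was 0.05 when the libraries were scaled by the median ratio of sites and −0.02 with the divisors behind the deposited RPM values.

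The 5 members with the highest lower count lay on 4 chromosomes. The first lay on chromosome 12 at 108361561 in Cyp46a1, the gene for a cholesterol hydroxylase of neurons, with 144 undifferentiated and 147 differentiated counts. It was followed by a site on chromosome 17 at 36190050 in H2-T3, a nonclassical histocompatibility gene, with 141 and 147 counts. The next had 139 and 145 counts on chromosome 8 at 83731849, in Adgre5, the gene for an adhesion receptor of leukocytes. A site on chromosome 13 at 12930418, in no protein-coding gene, had 139 and 138 counts, and a site on chromosome 12 at 111829360, in Ppp1r13b, the gene for a p53-binding protein, had 137 and 144. Of these 5, the sites on chromosomes 12 and 8 lay in raised stretches.

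Members were spread unevenly over the chromosomes, a property the rule did not use. Chromosome 12 held 721 of the 1709 members (42.2%), chromosome 8 held 435 (25.5%), chromosome 4 held 126 (7.37%) and chromosome 6 held 123 (7.2%). The same chromosomes held 4.11%, 5.16%, 6.53% and 4.43% of the comparison sites. Per 1000 CCGG sites listed in both libraries, there were 27.6 members on chromosome 12, 12.3 on chromosome 8, 4.30 on chromosome 6 and 3.39 on chromosome 4. The other 15 autosomes held 304 members together and ranged from 0.278 per 1000 on chromosome 18 to 2.09 on chromosome 17. The 95% Wilson intervals of chromosomes 12, 8, 6 and 4 lay above those of the other 15. The intervals cover the counting of sites only.

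**Figure D1:**
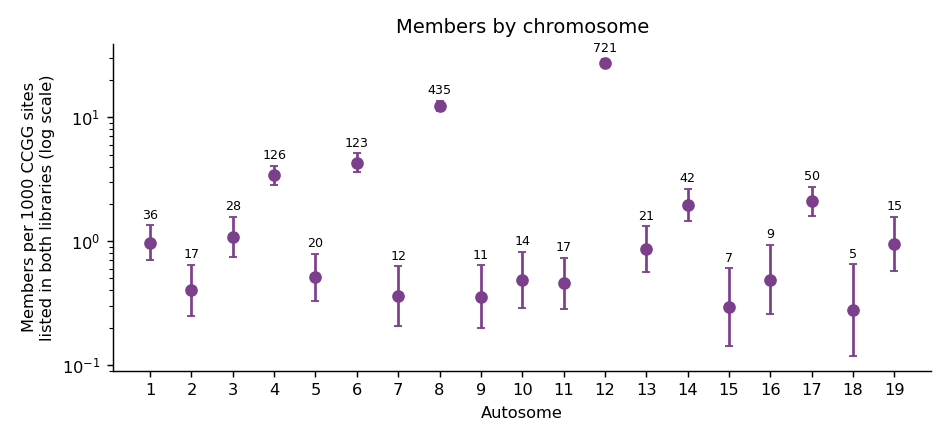
Members per 1000 CCGG sites listed in both libraries on each autosome, on a log scale, with 95% Wilson intervals as bars and the number of members printed above each point. Chromosome 12, at 27.6, and chromosome 8, at 12.3, stand above all other autosomes.

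On these chromosomes the members lay in long stretches rather than along the whole chromosome. The stretches were found without the members: in bins of 1 Mb, the median count of all other CCGG sites listed in both libraries was divided by its autosomal median, which gives a relative level of 1.0 for a typical bin. Runs of at least 10 Mb in which the mean relative level of both libraries, over 3 bins, reached 1.2 were called raised stretches. This rule was written after the concentration had been seen. There were 6 such stretches, on 4 chromosomes, covering 156 of the 2413 Mb that held listed sites. They held 24.4 members per 1000 CCGG sites listed in both libraries, and the other autosomal sequence held 0.727 per 1000. Of the comparison sites, 7.40% lay in the raised stretches. With a threshold of 1.3 in place of 1.2 there were 3 stretches covering 40 Mb, and they held 48.7% of the members and 2.57% of the comparison sites.

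The stretch on chromosome 12, from 85 to 115 Mb, held 714 members, 41.8% of all. There were 63.6 members per 1000 listed sites, the most of any stretch. Its other CCGG sites had a median of 34 undifferentiated and 31 differentiated counts, relative levels of 1.55 and 1.48. Chromosome 8 carried 3 stretches: 88 members lay at 10 to 28 Mb, 98 at 76 to 97 Mb and 232 at 104 to 130 Mb, with 15.1, 14.4 and 17.6 members per 1000 listed sites. On chromosome 4, 104 members lay at 97 to 122 Mb (14.3 per 1000), and on chromosome 6, 115 lay at 112 to 148 Mb (10.4 per 1000). Relative levels of the 5 stretches outside chromosome 12 were 1.32 to 1.36 in undifferentiated and 1.24 to 1.29 in differentiated cells. The 6 stretches were called on the mean level of both libraries, so the raised levels in each library are no separate evidence. Members were densest in the stretch with the highest level.

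At its ends the relative level of the chromosome 12 stretch changed over 1 or 2 bins. The relative level of the bin at 84 to 85 Mb was 0.95 in undifferentiated and 1.00 in differentiated cells, and that bin held 0 members. At 85 to 86 Mb the levels were 1.23 and 1.14, with 22 members, and at 86 to 87 Mb they were 1.77 and 1.48, with 44 members. The bin at 87 to 88 Mb had 1.5 and 1.14. At the far end the bin at 113 to 114 Mb had levels of 1.73 and 1.76. The last bin of the stretch, at 114 to 115 Mb with only 38 other sites, had 0.98 and 0.69. It was counted in because its level over 3 bins was 1.46. The bin with most members, 92, was at 112 to 113 Mb. The bins from 93 to 96 Mb had levels of 1.14, 1.16 and 1.09 over 3 bins, below 1.2, and belonged to the stretch because such gaps were bridged. Between 92 and 97 Mb, where few sites were listed, 2 members were found.

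**Figure D2:**
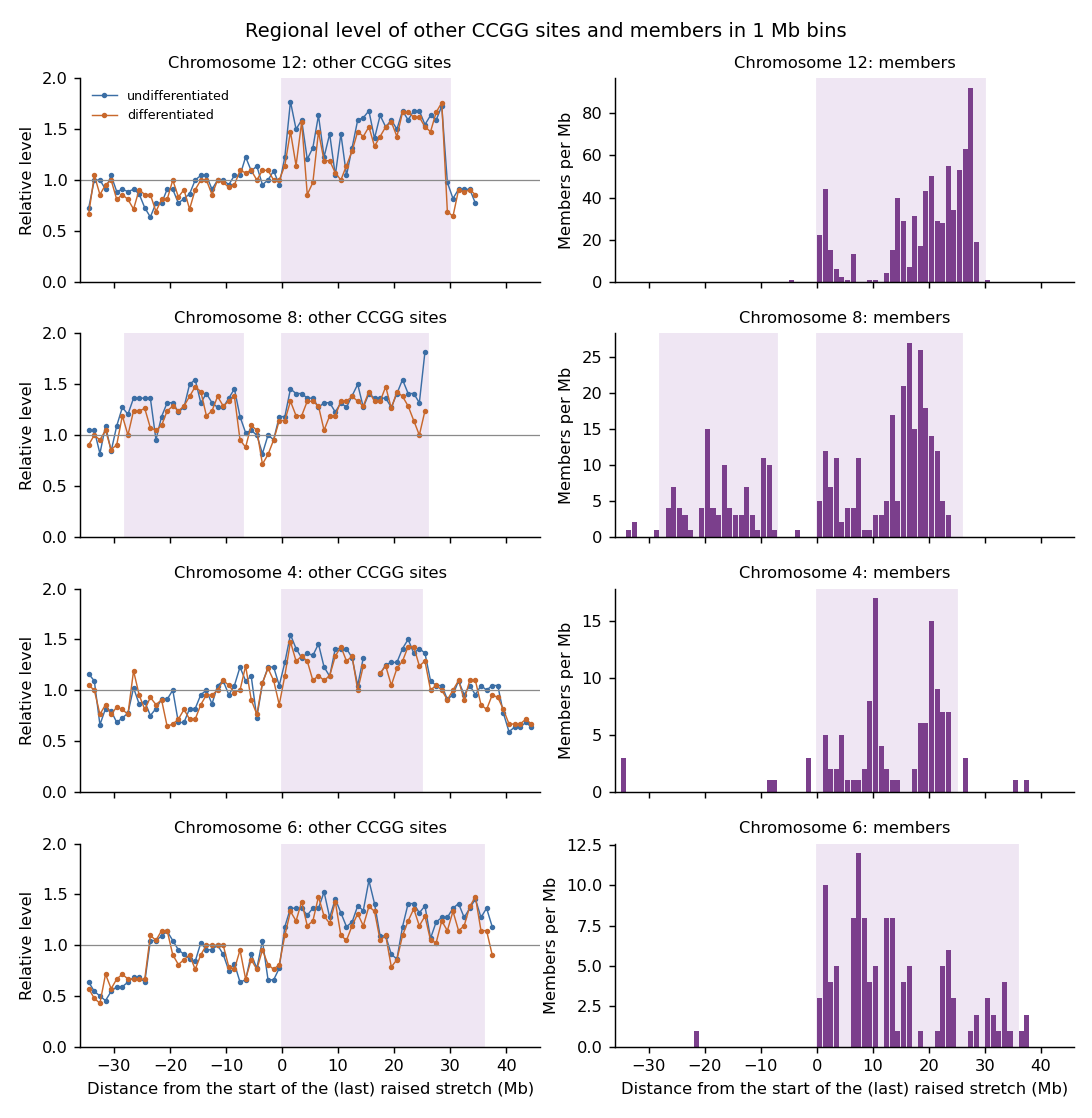
Left, relative level of other CCGG sites in 1 Mb bins (median count over the autosomal median) in undifferentiated and differentiated cells; right, members per Mb; both against distance in Mb from the start of the raised stretch (for chromosome 8, of the last of its 3), with raised stretches shaded. On chromosome 12 most bins of the stretch lie above 1 in both libraries and those before and after it near or below 1, and 714 of the 721 members of the chromosome lie inside it.

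Over all bins, members became denser as the relative level of the other sites rose. Members and levels were taken from the same counts, so a rise is in part built into this comparison. In bins with a level under 0.75 there were 0.358 members per 1000 listed sites, and in bins at 0.75 to 1.1 there were 0.477 to 0.580. The value was 3.44 at levels of 1.1 to 1.2, 11.4 at 1.2 to 1.3, 19.8 at 1.3 to 1.5 and 61.2 from 1.5 up. Bins of the highest group held 627 members. There were also 2 lowered stretches, with a level of at most 0.75, on chromosome 3 at 140 to 160 Mb and on chromosome 6 at 53 to 87 Mb. Their other CCGG sites had medians of 12 to 13 counts in both libraries, and among the 6082 sites listed in both they held 1 member.

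The share of sites in raised stretches differed between the count classes. Raised stretches held 6.68% of the sites with 5 to 9 counts in both libraries, 6.86% of those with 10 to 19, 7.40% of those with 20 to 39, 19.9% of those with 40 to 79 and 79.1% of the members (95% Wilson interval 77.1% to 80.9%). Of the 77 sites with 150 or more counts in both libraries, 13.0% lay there (7.21% to 22.3%). The members were thus the class with the highest share in the stretches, and the sites above them in count did not continue the rise. All classes but the members themselves entered the relative levels that define the stretches.

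**Figure D3:**
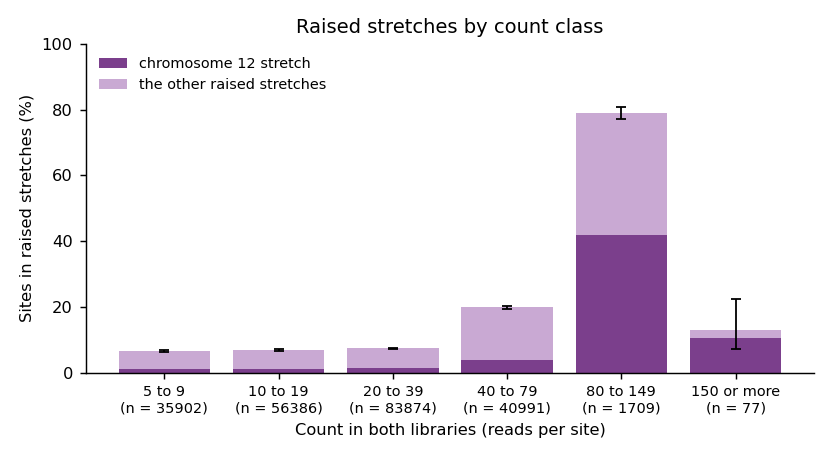
Share of the CCGG sites of each count class (same range in both libraries) that lay in raised stretches, split into the chromosome 12 stretch and the other 5, with 95% Wilson intervals for the whole bar. The share is 6.68% to 7.40% up to 39 counts, 19.9% at 40 to 79, 79.1% in the members and 13.0% at 150 or more.

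The stretches stood out in CCAGG and CCTGG sites as well, which the rule did not use and whose methylated cytosine is outside CpG. Only those more than 100 bases from any listed CCGG were taken, so that they shared no fragment with one. In the chromosome 12 stretch there were 48.3 of them in undifferentiated and 75.01 in differentiated cells per 100 listed CCGG sites. In the other 5 stretches, pooled, there were 37.3 and 59.3, outside the raised stretches 24.6 and 43.6, and in the lowered stretches 12.2 and 28.6. Their mean count, with sites of 1000 or more left out, was 11.6 in undifferentiated and 12.6 in differentiated cells in the chromosome 12 stretch, 9.18 and 9.87 outside the raised stretches, and 7.52 and 8.08 in the lowered ones. The medians of these sites lay closer together. They were 8 undifferentiated and 9 differentiated counts in the chromosome 12 stretch and 8 and 8 in the other 5. Outside the raised stretches they were 7 and 7, and in the lowered ones 6 and 6. By their means, counts of sites outside CpG thus moved in the same order as CCGG counts over these regions in both libraries, by small steps. The number of DNA copies of each stretch was not measured, and its part in the member counts was not tested.

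An adjustment was made for the level of the region. Each count was divided by the relative level of the surrounding 3 Mb in its own library, and the bounds of 80 and 149 were applied to the result. This left 463 sites, of which 332 were members, 19.4% of the 1709. Of the 463 sites, 24.2% lay in raised stretches and 13.2% in the chromosome 12 stretch. Raised stretches held 9.02% of the comparison sites adjusted in the same way and 10.1% of all sites listed in both libraries, so the adjusted sites still had the higher share there. The adjustment was chosen after the concentration had been seen.

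Members lay closer to other listed CCGG sites than comparison sites did when all autosomes were pooled. Counting CCGG sites listed in at least 1 library, the median distance to the nearest was 413 bp for members (quartiles 167 and 993) and 582 bp for comparison sites (quartiles 196 and 1479), and it was shorter for members on 16 of 19 autosomes. This direction turned when counts were divided by the regional level, where the 463 sites had a median of 596 bp and the ratio to comparison sites was 1.02. Within 1 kb on each side there were on average 1.83 other listed CCGG sites around a member and 1.37 around a comparison site, with the higher value around members on 14 of 19 autosomes. No other listed site lay within 1 kb of 24.8% of the members and 35.3% of the comparison sites. A neighbour within 32 bases, which can share a fragment with the site, was present at 2.57% of the members and 4.02% of the comparison sites.

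Within each kind of region the gap in distance was narrower than over all autosomes. In the chromosome 12 stretch the median distance was 378 bp for members and 367 bp for comparison sites, and the mean number within 1 kb was 1.92 and 1.88. In the other raised stretches the distances were 437 and 473 bp and the numbers 1.78 and 1.63. Outside the raised stretches the distances were 516.5 and 594 bp and the numbers 1.73 and 1.34. The ratio of distances was 0.870 there, 0.875 over all raised stretches and 0.710 over all autosomes, and the ratio of numbers was 1.29, 1.11 and 1.34. The mean number outside the stretches rested in part on 3 members on chromosome 17, at 39845625, 39845828 and 39847332, which had 34, 32 and 15 listed CCGG sites within 1 kb. Without sites that had over 10 such neighbours, the means outside the stretches were 1.52 over 355 members and 1.33 over 77599 comparison sites. Outside the stretches 33.8% of the members and 35.9% of the comparison sites had no listed site within 1 kb. In the chromosome 12 stretch the spacing and density of members and comparison sites were therefore nearly the same.

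**Figure D4:**
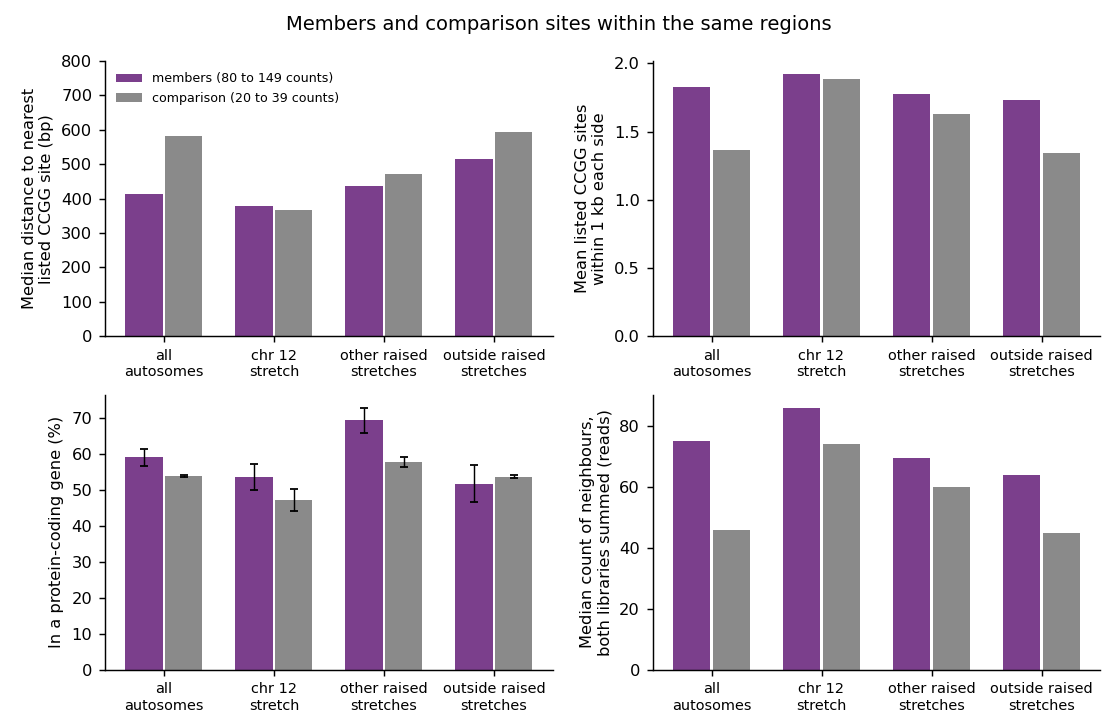
Members (80 to 149 counts) and comparison sites (20 to 39 counts) over all autosomes, in the chromosome 12 stretch, in the other raised stretches and outside them: median distance to the nearest listed CCGG site in bp, mean number of listed CCGG sites within 1 kb on each side, share in a protein-coding gene in % with 95% Wilson intervals, and median summed count of neighbouring CCGG sites in both libraries, members and comparison sites included among the neighbours. The gap in distance is 413 against 582 bp over all autosomes and 378 against 367 bp in the chromosome 12 stretch.

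Members also lay near each other. The median distance from a member to the nearest other member was 16832 bp over all autosomes, 6929.5 bp in the chromosome 12 stretch, 33359 bp in the other raised stretches and 298241.5 bp outside them. Another member was present within 1 kb of 133 members (7.78%), within 10 kb of 667 (39.03%) and within 100 kb of 1341 (78.5%). Joined at gaps of at most 1 kb, they made 1576 single sites, 62 pairs and 3 groups of 3. Most members thus had no other member within 1 kb and at least 1 within 100 kb.

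All 3 groups of 3 lay in genes of the chromosome 12 stretch. In Dync1h1, which encodes the heavy chain of cytoplasmic dynein, the members at 110634964, 110635286 and 110635760 had 108, 88 and 106 undifferentiated and 112, 143 and 102 differentiated counts. Between the second and the last of them stood 2 sites above the rule's bound in differentiated cells, with 129 and 174 and with 126 and 158 counts, and 2 sites below it in undifferentiated cells, with 56 and 103 and with 45 and 65. In Akt1, which encodes a kinase of the insulin and growth factor pathway, the members at 112656544, 112657085 and 112658022 had 115, 106 and 98 undifferentiated and 98, 81 and 145 differentiated counts. Sites with 12 and 8 and with 19 and 19 counts lay between the last pair of these Akt1 members. In Ccdc85c, a gene for a coiled-coil protein of cell junctions, the members at 108225924, 108226695 and 108227340 had 106, 92 and 98 undifferentiated and 91, 89 and 145 differentiated counts, and sites with 15 and 18 and with 17 and 43 counts lay among them. Counts of neighbouring sites in these groups thus ranged widely within 1 kb.

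Neighbours that shared no fragment with a member had higher median counts than those of comparison sites, by less inside the raised stretches. These were listed CCGG sites more than 32 bases and up to 1 kb away, present in both libraries. With members and comparison sites kept among them, their medians were 36 undifferentiated and 36 differentiated counts near members and 23 and 22 near comparison sites. In the chromosome 12 stretch they were 42 and 43.5 near members and 36 and 35 near comparison sites, in the other raised stretches 34 and 33 against 31 and 28, and outside the raised stretches 30 and 32 near members and 22 and 22 near comparison sites. With both classes left out of the neighbours the medians were 38 and 38 against 19 and 19, but leaving out the range of 20 to 39 opens a gap in the counts. CCAGG and CCTGG sites at the same distances were present at 76.1% of the members and 52.9% of the comparison sites, and in the chromosome 12 stretch at 81.5% and 71.7%. Over all autosomes their median count was 10 in both libraries near members and 8 in both near comparison sites. In the chromosome 12 stretch it was 10 and 10 against 9 and 10, and in the other raised stretches 9 in both libraries near both kinds of site.

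By RefSeq gene positions on GRCm38.p6, 59.1% of the members lay between the start and end of a protein-coding gene (1010 sites), and 53.8% of the comparison sites did. The share was higher for members on 14 of 19 autosomes. It was 53.6% against 47.2% in the chromosome 12 stretch and 69.4% against 57.7% in the other raised stretches, and 51.7% against 53.7% outside them. Sites with 40 to 79 counts in both libraries had 59.4%, so members did not stand above the class next to them. Promoters, taken as 1000 bases before to 100 bases after a start, held 21 members (1.23%) and 1.57% of the comparison sites. The shares were 0.888% and 1.74% in the raised stretches, and outside them the order turned, with 2.51% (9 members) and 1.56%. The median distance to the nearest gene start used was 21552 bp for members and 26758 bp for comparison sites. The starts used were not complete, since the member inside Plat was given a nearest start 356949 bp away. Members were found in 540 of 20665 protein-coding genes, 383 of which overlapped a raised stretch. Exons, introns, repeats and CpG islands were not analysed here.

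The 10 genes with most members were long genes of the chromosome 12 stretch in 8 cases. Cdc42bpb, which encodes a kinase that acts on the actin cytoskeleton, held 14 members among 106 CCGG sites listed in both libraries, and Foxn3, which encodes a forkhead repressor, held 14 among 236. In Cdc42bpb, member counts ran from 82 to 112 in undifferentiated and from 81 to 143 in differentiated cells, and the median over all its listed sites was 43.5 and 42.5 counts. Next on this chromosome were Ttll5, which encodes a tubulin-modifying enzyme, and Ccdc85c, with 11 each, Efcab11 and Bcl11b, a gene for a zinc finger factor of T-cell development, with 10 each, and Tecpr2, a gene of the autophagy pathway, and Dync1h1, with 9 each. Gse1, on chromosome 8, held 12 among 388. Dnah8, which encodes an axonemal dynein of sperm tails, held 11 among 142 on chromosome 17 and was the only gene of the 10 outside a raised stretch.

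By the share of members among the CCGG sites listed in both libraries, in genes with at least 20 such sites, Tecpr2 came first with 25.7% (9 of 35). The members of Tecpr2 had 82 to 129 undifferentiated and 81 to 130 differentiated counts. Akt1 had 19.4% (6 of 31), with undifferentiated counts of 97 to 136 and differentiated counts of 81 to 145. Lgmn, which encodes a lysosomal protease, had 19.2%. Adat1, a gene for a tRNA deaminase, Tnfaip2, a gene induced by tumour necrosis factor, and Wfdc1, a gene for a small secreted protein, had 18.2% each. The 4 members of Wfdc1 had 89, 104, 97 and 91 undifferentiated and 80, 93, 121 and 106 differentiated counts. Dglucy had 17.2%, Bdkrb2, which encodes a bradykinin receptor, 15.6%, and Inf2, which encodes a formin, and Jag2, which encodes a Notch ligand, 15.4% each. All 10 lay in raised stretches, 8 of them on chromosome 12.

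Genes linked to these cells were read against the 0.312% of all 547722 sites that were members. Of 25 pluripotency genes, 2 held members, and both lay in the chromosome 12 stretch. Their members made 4 of the 176 sites listed in both libraries over all 25 genes (2.27%). Esrrb, which encodes an orphan nuclear receptor of the pluripotency network, held 3 members among 84 listed sites, 3.57% beside 6.36% in its stretch. These had 81, 88 and 136 undifferentiated and 102, 80 and 130 differentiated counts. The median over all listed sites of Esrrb was 41.5 and 36 counts. Tcl1, which encodes a coactivator of Akt kinases, held 1 member with 109 and 137 counts among 7 listed sites (14.3%). Nanog and Dppa3 lay in the chromosome 6 stretch and held none, and Nanog had no CCGG site listed in both libraries.

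Of 23 genes of primitive endoderm and basement membrane, the cell type and matrix that F9 cells can form with retinoic acid, 3 held members, all on chromosome 8. These were 4 of 761 listed sites (0.526%). Col4a1 and Col4a2, which encode chains of type IV collagen, held a member with 82 and 91 counts and members with 94 and 118 and with 88 and 94 counts. Plat, which encodes tissue plasminogen activator, held 1 with 86 and 88. Of 22 germline genes silenced by methylation, Tuba3a, a gene for a testis tubulin on chromosome 6, held 1 member with 103 and 118 counts among the 230 listed sites of the list (0.435%). Of 16 large neuronal genes, Nrxn3, which encodes a synaptic adhesion protein, held 3 members among 218 listed sites, with 92, 83 and 89 undifferentiated and 141, 96 and 128 differentiated counts. The list had 2239 listed sites, so that 0.134% were members. No member lay in any of 15 retinoic acid genes (302 listed sites), 10 genes of DNA methylation enzymes (266), 23 imprinted genes (449) or 20 housekeeping genes (59). With so few listed sites and a share of 0.312% over all sites, a count of 0 in these lists says little. The imprinted genes Dlk1 and Meg3 lay in the chromosome 12 stretch, with 10 and 25 sites listed in both libraries. Their surroundings were not free of members. Members lay between Dlk1 and Meg3, outside both genes. Rtl1, a gene near Meg3 that was not on the list, carried members at 109590859 and 109591837. These had 128 and 111 undifferentiated and 136 and 145 differentiated counts. The count of 0 thus covers the listed imprinted genes only. Every gene of the lists that held a member lay in a raised stretch.

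Outside the raised stretches there were 358 members, and they too were partly grouped. Runs shorter than 10 Mb were not called as stretches, so some raised bins count as outside. The bin at 138 to 139 Mb on chromosome 3, with 5 members, had levels of 1.36 and 1.43. Other bins with members were not raised, such as 36 to 37 Mb on chromosome 17 (4 members, levels of 1.00 and 0.95). Groups of at least 10 members with gaps of at most 100 kb held 44 of the 358. A group of 16 on chromosome 14, at chr14:99366798-99712688, lay in no protein-coding gene. Its other CCGG sites had medians of 51 undifferentiated and 33 differentiated counts, and those within 500 kb on its sides had 29 and 22. These sides lay partly in a wider region with members. The bin at 98 to 99 Mb held 14 members (levels of 1.32 and 1.29), and that at 99 to 100 Mb held 23 (1.73 and 1.19). A group of 14 on chromosome 17, at chr17:27251016-27389128, had medians of other sites of 38 and 44 inside and 22 and 23 beside it. Another 14 lay at chr17:30485441-30875079, over Btbd9, Glo1 and Dnah8, where the medians were 27.5 and 29 inside and 24 and 23 beside. The counts of other sites were thus raised inside the first pair of groups in both libraries, and less so over Dnah8. An alignment other than a full match was recorded for 4.19% of the members outside the stretches, 1.41% of those inside and 2.29% of the comparison sites.

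The bounds of the rule cut through a continuous range. Just inside the lower bound, 523 sites had a lower count of 80 to 84, with medians of 83 undifferentiated and 90 differentiated counts, and 76.5% of them lay in raised stretches. Just outside it, 753 sites had a lower count of 75 to 79, with medians of 78 and 85, and 67.7% lay there. At the upper bound, 110 sites had a higher count of 140 to 149 and 72 had one of 150 to 159, with 79.1% and 69.4% in raised stretches. Whatever the other library held, a count of 80 to 149 in undifferentiated cells was met by 4146 sites, 41.2% of them members, and in differentiated cells by 9979 sites, 17.1% of them members. Of these sites, members included, 72.6% and 47.2% lay in raised stretches.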

How the data were processed

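Per the labels' protocols, F9 genomic DNA was digested with FspEI, fragments of about 30 base pairs were cut from a gel, and adaptors were ligated. The submitters' processing notes name FastQC 0.11.3, Bowtie2 2.3.3 and GRCm38. Read filters and the source of the listing minimum are not given in the sources used here. In the deposited tables the authors gave counts as whole reads per site, at least 5 in every listed row. The RPM column deposited by the authors was treated as a score, because it does not sum to 1000000, and served only as another scaling (divisors of 2221852 and 2446243).

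CCGG positions were matched between libraries by chromosome and position, and 50 positions whose motif differed were left out. Levels were counts per 1000000 CCGG counts (16687588 undifferentiated, 15705436 differentiated). Gene positions and promoter sequences came from RefSeq tables of GRCm38.p6, in which the first C of the CCGG matched the deposited positions. Bins needed 30 sites, and gaps of up to 3 Mb in a stretch were bridged. With 1 library per group there was no test and no model of spread. Distances, window counts and stretch calling were tested on simulated data.

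The members, gene lists and alternatives were chosen with earlier results of these data known. Named genes were the 10 with most members, the 10 with the highest share of members and every listed gene with a member, with the 3 largest clusters. Rtl1 was named for its place near Dlk1 and Meg3. The planned analyses that need a genome sequence (fragments of all members, copies of the 32 bases, all CCGG of the genome, exons and CpG islands) were not run, and the printed fragments are instead all those inside promoter windows and their nearest comparison sites on chromosomes 12, 6 and 8. The scripts ran under pandas 2.3.3, scipy 1.17.1, numpy 2.4.6 and Python 3.11.15.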

Additional observations from a re-analysis of the deposited data

How the results depend on the processing

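Values below are, in this order where given, the median library log2 ratio of members (0.21 as reported), the median spacing of members over that of comparison sites (0.710), the same ratio of mean CCGG density (1.34), the share of members in raised stretches (79.1%), the difference in gene share (5.26 percentage points) and the ratio of neighbour counts (1.95, both classes left out). The library ratio was 0.051 with median-ratio scaling, −0.019 with the RPM divisors and 0.17 without the 1000 highest sites. Spacing was 0.609 with neighbours listed in both libraries, and neighbour counts 1.73 up to 10 kb. With at least 100 counts in both, the library ratio was 0.17, spacing 0.647, gene share 2.01 and neighbour counts 2.23. Against comparison sites of 40 to 79 counts, spacing was 0.823, density 1.19, gene share −0.302 and neighbour counts 1.58. With classes cut on levels the library ratio was 0.165. The other planned values, 13 in all, kept within the counting interval of the reported ones.

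The following alternatives were chosen after seeing the data. In raised stretches only, spacing was 0.875, density 1.11 and neighbour counts 1.23. Outside them the library ratio was 0.18, spacing 0.870, gene share −2.00 and neighbour counts 1.79, and density there was 1.14 without sites that had over 10 others within 1 kb. In the chromosome 12 stretch only, spacing was 1.03, density 1.02 and neighbour counts 1.13. Without that stretch, spacing was 0.769, location 64.0%, gene share 9.09 and neighbour counts 1.83. With counts divided by the regional level, the library ratio was 0.18, spacing 1.02, density 1.19, location 24.2%, gene share −0.857 and neighbour counts 1.57. Neighbour counts were 1.63 with both classes kept. A stretch threshold of 1.3 gave 48.7% of members (2.57% of comparison sites, 40 Mb), and one of 1.1 gave 80.3%. The causes of these shifts were not tested. No paired analysis was possible because each group had 1 library. Depth limits what is listed: sites with under 5 counts are absent, and the number of reads before this minimum is unknown.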
